A study of Mus musculus with 157 samples.

Results

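The 10 livers described here have the widest expression profiles of 157 livers, each taken from 1 male mouse of the pre-Collaborative Cross. For every array, the SD of its scores was taken over all 23176 genes, and the 10 arrays with the highest SD were set against the other 147. The 10 belong to the strains OR3571, OR559, OR5232, OR5067, OR3140, OR799, OR3061, OR489, OR5513 and OR305. They did not share 1 direction. Over genes, the profiles of OR559, OR3061, OR799 and OR5232 correlated positively with that of OR3571, those of OR5067, OR489, OR305 and OR5513 correlated negatively with it, and that of OR3140 did neither beyond a small amount. Within a side the likeness was partial, strongest between OR3571 and OR559 and weakest between OR5513 and OR305.

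The 10 and the 147 share their origin and handling, per the labels. All are males of partly inbred strains that descend from 8 founders, namely the classical laboratory strains A/J, C57BL/6J and 129S1/SvImJ, the disease models NZO/H1LtJ and NOD/LtJ, and the wild-derived strains WSB/Ei, PWK/Ph and CAST/Ei. Each strain gave 1 mouse at generation G2:F5 to G2:F12. The mice ate the same chow, moved to the test site at 9 to 11 weeks of age, went through a programme of 3 weeks with alcohol exposure and exercise, and were killed at 12 to 15 weeks. The labels do not say which mouse received what. Total liver RNA was hybridized to Affymetrix arrays in 8 batches of 11 to 24 arrays, and the mice fell into 10 kill cohorts of 5 to 37 mice, where a cohort joins kill dates at most 3 days apart. With 1 mouse per strain, strain, treatment, environment and array error cannot be told apart in any single liver.

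The liver is built mostly of hepatocytes, which make plasma proteins and bile and run much of the body's metabolism of sugars, lipids, alcohol and drugs. Smaller populations, among them Kupffer cells (the resident macrophages), endothelial, stellate and biliary cells, add their own transcripts to RNA from whole tissue. Genes under the control of the same regulators, or expressed in the same cell type, tend to vary together from mouse to mouse. In RNA from whole tissue, fewer cells of a type and less RNA per cell cannot be told apart. The genes carry Ensembl identifiers without symbols, so the markers of liver and of these other cell types were not checked, and genes are described as sets and by 4 identifiers.

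A score says where a mouse stands among the 157 for 1 gene. It is the normal quantile of the mouse's rank, runs from -2.49 for the lowest mouse to 2.49 for the highest, and has an SD near 1 over the mice of each gene. A score holds no expression level and no fold change. A profile with a high SD is therefore 1 in which many genes place the mouse near the top or the bottom of the set, by however small an amount of RNA. No pair of arrays held identical values.

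The SD chose the 10 livers and is given as a description. It was 1.57 in OR3571, 1.40 in OR559, 1.19 in OR5232, 1.19 in OR5067, 1.15 in OR3140, 1.14 in OR799, 1.14 in OR3061, 1.13 in OR489, 1.11 in OR5513 and 1.11 in OR305. The 147 others ran from 0.797 to 1.11 with a median of 0.933. OR3571 and OR559 stood well apart from the remaining arrays, whereas the lower end of the 10 met the others without a gap. The last liver inside the boundary, OR305, had an SD of 1.1101, and the first outside it, OR3080, had 1.107.

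**Figure D1:**
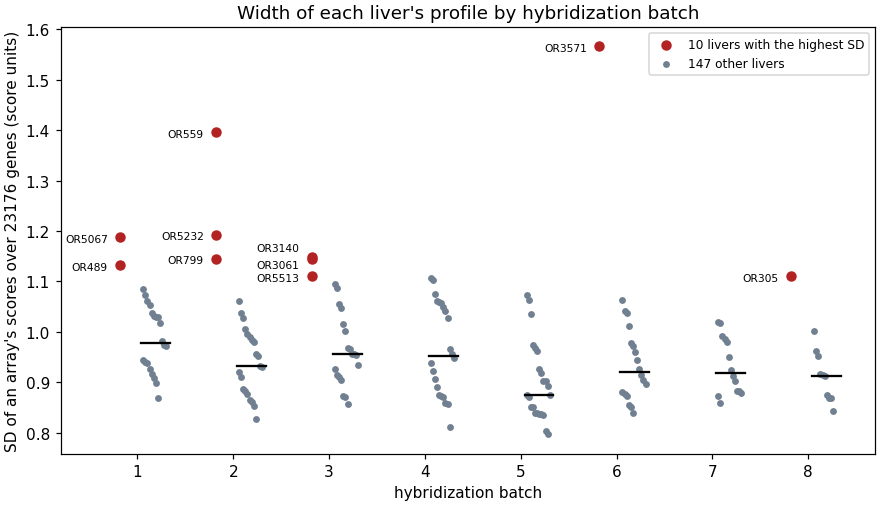
SD of each array's scores over 23176 genes (y axis, score units) by hybridization batch (x axis). Large red points are the 10 livers, small grey points the 147 others, and the black bar is the median of the other livers of a batch. OR3571 at 1.57 and OR559 at 1.40 lie above all other arrays, and batches 4, 5 and 7 hold none of the 10.

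Extreme ranks made up a large part of the wide profiles. With the highest and lowest 10% of mice as tails, OR3571 lay in the highest tail for 33.1% of genes and in the lowest for 20.3%. OR559 lay in the highest tail for 27.5% and in the lowest for 16.5%. Over the 10 livers, 33.7% ± 8.43 of genes lay in either tail, against 18.2% ± 4.14 in the others (SD over 10 and 147 livers). OR3571 was the highest of all 157 mice for 2610 genes and the lowest for 1150, and OR559 was the highest for 1346 and the lowest for 588. An equal split would give each mouse 147.6 genes, and the others had a median of 79 genes at the top and 106 at the bottom.

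The balance of the tails divided the livers. OR3140 was the most one-sided, with 22.8% of genes in the highest tail and 8.94% in the lowest, and a mean score of 0.352. OR3061 likewise had more genes high (19.2%) than low (11.4%), while OR5232 (17.5% high and 14.3% low) and OR799 (16.6% high and 13.2% low) were closer to even. The 4 livers on the other side had the opposite balance. OR5067 was high for 13.0% and low for 19.0%, OR489 high for 11.0% and low for 18.3%, OR305 high for 11.5% and low for 16.0%, and OR5513 high for 12.4% and low for 14.2%. Mean scores were -0.168 in OR5067, -0.198 in OR489, -0.158 in OR305 and -0.0222 in OR5513. Overall brightness of an array was not examined, since the scores no longer hold it.

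**Figure D2:**
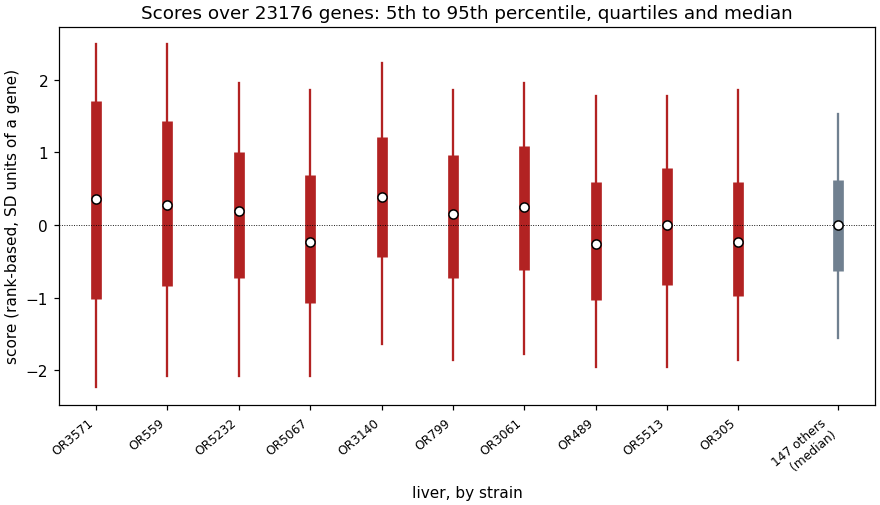
Distribution of the scores of 23176 genes in each of the 10 livers, in order of SD, and the median of the same percentiles over the 147 others at the right. Thin lines span the 5th to the 95th percentile, thick bars the quartiles, and white points mark the median. The median lies above 0 in OR3571, OR559, OR5232, OR3140, OR799 and OR3061, below 0 in OR5067, OR489 and OR305, and at 0 in OR5513.

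The opposition is plainest in the correlation of whole profiles over genes. OR3571 correlated with OR559 at 0.667, the highest value of any pair among the 157 arrays, and with OR3061 at 0.454, OR799 at 0.418 and OR5232 at 0.371. It correlated with OR489 at -0.457, OR5067 at -0.457, OR305 at -0.408 and OR5513 at -0.366. OR3140 stood at 0.108. These values were used to define the 2 sides, after they had been seen, by a correlation with OR3571 over 0.3 or under -0.3. The sides carry no test, and genes are not independent replicates.

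The signs of the pairs with OR3571 follow from that definition. Among the pairs that do not involve OR3571, all 6 between OR559, OR3061, OR799 and OR5232 were positive, from 0.151 to 0.489. All 6 between OR5067, OR489, OR305 and OR5513 were positive as well, from 0.146 to 0.410. All 16 pairs across these livers were negative, from -0.456 to -0.0699. OR3140 correlated with the 9 others at -0.164 to 0.133. In all, 24 of the 45 pairs (53.3%) were negative, close to the 53.5% among pairs of the 147 others. The difference from the 147 lay in the size. Of the pairs of the 10, 64.4% were at least 0.2 in size, against 3.73% of the 10731 pairs of the others. The median size was 0.257 against 0.0557. Large sizes were not particular to the 10. Among the 190 pairs of the 20 arrays with the highest SD, which include the 10, the median size was 0.245. Arrays far from the centre on a shared axis correlate strongly by construction, and the SD that chose the 10 was taken from the same scores. Of the pairs of OR3140, 0 of 9 were at least 0.2 in size. How far the choice of the 10 gave the contrast in size with the 147 others was not tested.

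**Figure D3:**
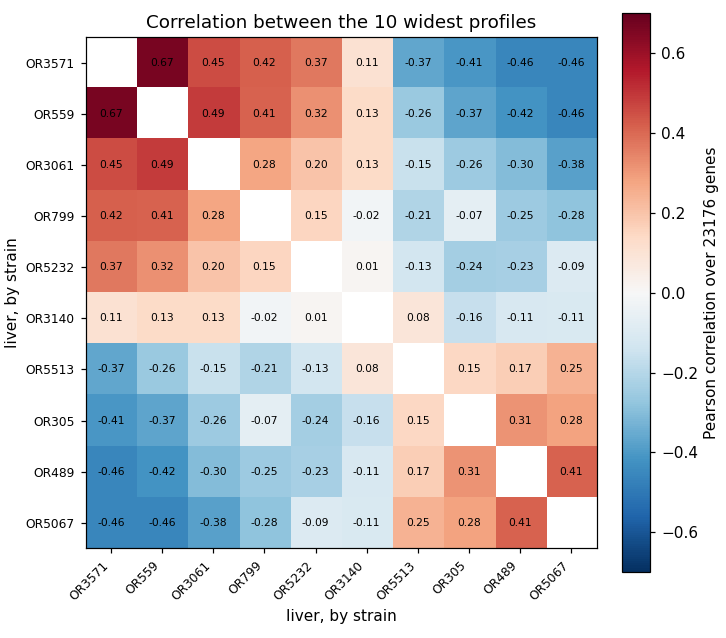
Pearson correlation over 23176 genes between the profiles of the 10 livers, ordered by side. Red is positive and blue negative. The 5 livers from OR3571 to OR5232 form 1 positive block and the 4 from OR5513 to OR5067 the other, the cells between them are negative, and OR3140 is pale throughout.

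Hybridization batch and kill cohort were followed as covariates. With both removed from the scores, 24 pairs were again negative and the median size was 0.187. The OR3140 and OR3061 pair moved to -0.00535, against 0.133 before, and the OR799 and OR305 pair to 0.0364, against -0.0699. The other pairs kept their sign. Side and batch were partly aligned. OR559, OR5232 and OR799, all from batch 2, lay on the side of OR3571, and both livers of batch 1, OR5067 and OR489, lay on the other. Batch 3 held 1 liver of each kind, with OR3061 on the side of OR3571, OR5513 opposed and OR3140 on neither. OR5232 and OR5513 were killed on the same day and lay on opposite sides. OR489 and OR305, also killed on 1 day but hybridized in batches 1 and 8, lay on the same side. With batch and cohort removed, the correlation of OR489 with OR305 was 0.0983, against 0.313 before. The part of batch in the sides was not tested.

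The same axis ran through the livers that the rule did not pick. Principal components were fitted on the 147 others alone, and the 10 were projected on them. Component 1 held 9.27% of the variance of the others, against 3.30% for component 2. In units of the SD of the others, OR3571 stood at 4.45 on component 1, OR559 at 3.61, OR3061 at 2.32, OR799 at 1.89, OR5232 at 1.61 and OR3140 at 0.789. On the other end, OR5067 stood at -2.55, OR489 at -2.18, OR305 at -1.80 and OR5513 at -1.38. The sign of a component is arbitrary and was set so that OR3571 is positive. The 147 ran from -2.24 to 2.43, so OR3571, OR559 and OR5067 lay beyond every other liver and the remaining 7 lay within their range.

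The axis accounted for very different parts of each profile. It held 64.7% of the sum of squares of OR3571, 53.7% of OR559, 38.2% of OR5067, 32.8% of OR3061, 30.6% of OR489, 22.4% of OR799, 21.8% of OR305, 14.8% of OR5232, 12.9% of OR5513 and 3.58% of OR3140. Without component 1, the SD of OR3571 was 0.946, the 42nd highest of 157, and that of OR559 was 0.965. OR3140 (1.14) and OR5232 (1.11) then had the highest and the second highest SD. Component 2 held 12.2% of OR3140 (position 2.44), and component 3 held 13.6% of OR5232 (position 2.73).

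**Figure D4:**
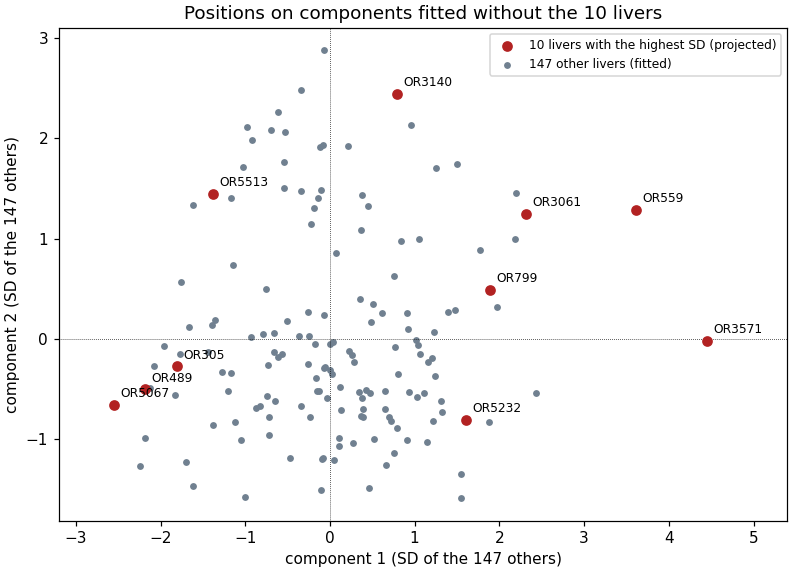
Positions of the livers on components 1 (x axis) and 2 (y axis), in units of the SD of the 147 other livers on which the components were fitted. Red points are the 10 livers, projected afterwards, and grey points the others. OR3571 at 4.45 and OR559 at 3.61 lie beyond the right edge of the others, OR5067 at -2.55 lies beyond the left edge, and OR3140 lies high on component 2.

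Against the other livers of their own batch, 6 of the 10 lay beyond the range on component 1 and 4 (OR799, OR5232, OR3061 and OR3140) lay within it. OR3571 lay 4.64 above the mean of the 18 others of batch 6, whose highest was 1.23. OR559 lay 3.49 above, OR799 1.77 above and OR5232 1.482 above the mean of the 21 others of batch 2. Of these, only OR559 was beyond the highest of that batch, 1.97. OR5067 and OR489 (differences of -2.51 and -2.15) both lay under the lowest of the 20 others of batch 1, -1.96. In batch 3, OR5513 (difference -2.04) lay under the lowest of the 19 others, -0.617, whereas OR3061 (difference 1.66) and OR3140 (difference 0.127) lay within them. OR305 (difference -1.68) lay under the lowest of the 10 others of batch 8, -1.39. With batch and cohort removed, all 10 kept their sign on component 1 but several positions moved by more than 1.5 times. OR305 stood at -1.03, OR489 at -1.42, OR3061 at 1.504, OR3140 at 0.277 and OR5513 at -2.13. OR3571 stood at 4.44, OR559 at 3.14, OR5067 at -2.27, OR799 at 1.61 and OR5232 at 1.44. Among the 147, batch accounted for 12.8% of the variance of component 1, fluidic station for 11.0%, kill cohort for 4.00% and slot for 1.02%.

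The genes that weigh most on the axis show how far each liver had moved. The 2318 genes with the highest loadings, chosen on the 147 others, had a mean score of 2.17 in OR3571, 1.78 in OR559, 1.13 in OR3061, 1.07 in OR799, 0.896 in OR5232 and 0.291 in OR3140. The mean was -0.943 in OR5513, -0.977 in OR305, -1.16 in OR489 and -1.30 in OR5067. The others ran from -1.25 to 1.35 around a median of -0.00504. In OR3571, 93.6% of these genes were in the highest tail and 0% in the lowest, and in OR5067, 0.129% were in the highest and 52.5% in the lowest.

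The 2317 genes with the lowest loadings mirrored them. Their mean score was -1.58 in OR3571, -1.43 in OR559, -0.975 in OR3061, -0.627 in OR799, -0.354 in OR5232 and -0.154 in OR3140, and 0.318 in OR5513, 0.629 in OR305, 0.926 in OR489 and 1.24 in OR5067. The others ran from -0.980 to 1.18. Here OR5067 lay above every other liver, and OR3571 and OR559 lay below every other liver. OR5232 followed this set loosely, with 28.0% of the genes in the lowest tail and 13.2% in the highest.

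**Figure D5:**
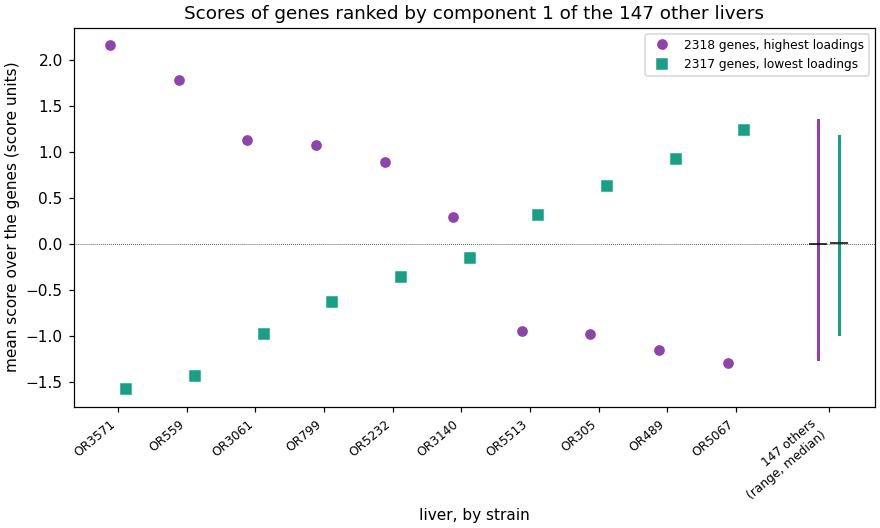
Mean score (y axis, score units) of the 2318 genes with the highest and the 2317 genes with the lowest loadings on component 1 of the 147 others, in each of the 10 livers (x axis). Bars at the right span the lowest to the highest of the 147 others, with the median as a tick. The 2 gene sets cross between OR3140 and OR5513.

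Genes extreme in several of the 10 were counted next. A gene was taken as shared high where at least 5 of the 10 were in the highest 10% of mice, as shared low where at least 5 were in the lowest 10%, and as divided where at least 3 were in each tail. There were 646 shared high genes (2.79% of all genes), 211 shared low genes (0.910%) and 1072 divided genes (4.63%). The rule used every one of these values, so the counts are descriptive. On average a liver of the 10 lay in the highest tail for 18.5% of genes and in the lowest for 15.2%. With shares of that size, some genes reach 5 livers, or 3 in each tail, even where the livers are unrelated. How many of the counted genes this would give was not tested. No gene had more than 7 of the 10 in 1 tail; 4 genes reached 7 in the highest tail and 2 in the lowest. In 22 genes (0.0949%) all 10 livers lay above 0 and in 13 (0.0561%) all lay below 0.

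Most shared high genes were high in OR3571, OR559, OR3061, OR799 and OR5232. Of the 646, OR559 was in the highest tail for 91.0%, OR3571 for 90.1%, OR3061 for 82.4%, OR799 for 73.7%, OR5232 for 70.0% and OR3140 for 58.2%. OR489 was there for 8.98%, OR5067 for 8.36% and OR305 for 8.20%, each below its share over all genes (11.0%, 13.0% and 11.5%), and they were in the lowest tail for 35.6%, 38.9% and 31.0%. OR5513 was close to even, in the highest tail for 20.7%, above its 12.4% over all genes, and in the lowest for 24.0%. At least 1 of the 10 was in the lowest tail for 516 of the 646, and none was for 130.

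Shared low genes divided the livers less clearly. OR559 was in the lowest tail for 88.2% of the 211, OR3571 for 87.7%, OR3061 for 74.9%, OR799 for 71.6%, OR5232 for 60.7% and OR3140 for 48.3%. OR5513 was in the lowest tail for 25.1% and in the highest for 9.00%, with a mean score of -0.247. In these genes it leaned low, but far less than the livers on the side of OR3571, of which OR5232 was nearest at -1.07. OR305 was low for 24.2% and high for 16.6%. Both were low more often than over all genes (14.2% and 16.0%). OR5067 (18.0% low and 30.8% high) and OR489 (11.4% low and 32.2% high) leaned the other way. At least 1 liver was in the highest tail for 146 of the 211.

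In 730 of the 1072 divided genes OR3571 was above 0, and in 342 it was below. The 730 had a mean score of 2.13 in OR3571, 1.80 in OR559, 1.15 in OR3061, 1.04 in OR799 and 0.990 in OR5232, and of -1.54 in OR5067, -1.44 in OR489, -1.27 in OR5513 and -1.23 in OR305. OR3140, at 0.162, was above 0 for 57.4% of them. The 342 had a mean of -1.91 in OR3571, -1.75 in OR559, -0.947 in OR3061 and -0.611 in OR799, and of 1.56 in OR5067, 1.41 in OR489, 1.02 in OR305 and 0.589 in OR5513. OR5232 did not take a side in the 342, with a mean of -0.00867 and 50.6% of them below 0.

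The counts of shared genes fell most without OR3571 or OR559 and least without OR5067, OR489, OR5513 or OR305. Without OR3571 there were 129 shared high, 44 shared low and 542 divided genes, and without OR559 there were 125, 44 and 588. Leaving out OR3061 gave 180 shared high and 71 shared low genes, OR799 234 and 74, OR5232 251 and 99, and OR3140 334 and 125. Leaving out OR5067 gave 600 and 176, OR489 596 and 187, OR5513 533 and 169, and OR305 603 and 161. Divided genes numbered 351 without OR5067, 392 without OR489, 558 without OR305 and 593 without OR5513. With 1 liver fewer and the same minimum of 5, or of 3 in each tail, a count cannot rise, so part of each drop follows from the count rule. With batch and cohort removed there were 253 shared high, 159 shared low and 643 divided genes.

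Tails were also set against each other between single livers. Of the 7679 genes in the highest tail of OR3571, 4477 (58.3%) were also in the highest tail of OR559, against 27.5% of all genes. They made up 70.2% of the highest tail of OR559, where 33.1% of all genes were in the highest tail of OR3571. Of the 7679, 95 were in the lowest tail of OR559. With OR5067 the order turned round. OR3571 was in the highest and OR5067 in the lowest tail for 2653 genes. That is 34.5% of the first list, against 19.0% of all genes in the lowest tail of OR5067. It is 60.4% of the second list, against 33.1% of all genes in the highest tail of OR3571. Both were in the highest tail for 194 genes. OR3140 showed no such order. Of its highest tail, 38.0% lay in the highest tail of OR3571 and 12.9% in the lowest, against 33.1% and 20.3% of all genes. Of its lowest tail, 32.3% lay in the highest tail of OR3571 and 25.2% in the lowest.

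Genes of these sets also varied together among the 147 livers that did not define them. Scores of the others are tied to those of the 10, since a gene's ranks are shared out over all 157 mice. Over all pairs of the 23176 genes, the median correlation across the 147 was 0.0077 and 52.5% of pairs were positive. Among the 730 divided genes with OR3571 above 0 the median was 0.259 and 93.7% of pairs were positive, and among the 342 with OR3571 below 0 it was 0.168 with 83.9% positive. Between the 730 and the 342 it was -0.180, with 9.33% positive. The shared high genes had a median of 0.193 and the shared low genes 0.106. Of the 730, 58.2% were among the 2318 of all 23176 genes with the highest loadings on component 1, where they made up 18.3%. Of the 342, 62.9% were among the 2317 of all 23176 genes with the lowest loadings, where they made up 9.28%.

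A mean over the 10 hides most of this, since the sides cancel. The difference of the 10 from the 147, with batch and cohort as covariates, had a median over all genes of 0.0830 score units. It reached 1 unit in 135 genes higher in the 10 (0.582%) and 95 genes lower (0.410%), and ran from -1.36 to 1.73. These genes, chosen and measured on the same values, carry no test. Of the 135, 56 (41.5%) were shared high genes, which is 8.67% of the 646, and of the 95, 32 (33.7%) were shared low genes, which is 15.2% of the 211. Leaving out a liver of the opposed side raised the count of higher genes, to 269 without OR489, 265 without OR305, 248 without OR5067 and 240 without OR5513. Lower genes numbered 207 without OR5513, 188 without OR489, 177 without OR3140, 169 without OR305, 165 without OR3061 and 144 without OR5067. The balance of 135 higher against 95 lower genes turned round without OR3140 (144 higher and 177 lower) and without OR3061 (151 higher and 165 lower).

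Single identifiers illustrate the 3 kinds of gene. ENSMUSG00000058743, the leading shared high gene, had scores of 2.49 in OR3571, 2.24 in OR559, 1.95 in OR5513, 1.77 in OR3061, 1.53 in OR799, 1.479 in OR5067, 1.35 in OR3140, 1.11 in OR489, 1.00 in OR5232 and 0.833 in OR305. All 10 were above 0 and 7 were in the highest tail, from both sides. The mean was 1.58 ± 0.540 in the 10 and -0.107 ± 0.904 in the 147 (SD), and the adjusted difference was 1.73, the largest of any gene. The others ran from -2.49 to 2.08, so the groups overlapped. Its loading on component 1 stood at percentile 50.3 of all genes, in the middle.

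ENSMUSG00000026356, the leading shared low gene, followed the sides in part. Its scores were -2.49 in OR3140, -2.08 in OR5513, -1.77 in OR3571, -1.70 in OR559, -1.64 in OR5232, -1.479 in OR799 and -1.31 in OR3061, all in the lowest tail. OR305 at 1.08, OR5067 at 1.06 and OR489 at 0.192 were above 0. The mean was -1.01 ± 1.30 in the 10 and 0.0690 ± 0.915 in the 147 (SD), with an adjusted difference of -1.02.

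Among the divided genes, ENSMUSG00000073741 separated the 10 into those above and those below 0 just as component 1 did. It scored 2.49 in OR559, 2.24 in OR3571, 2.08 in OR799, 1.95 in OR3061, 1.70 in OR5232 and 1.41 in OR3140, and -2.24 in OR5513, -1.86 in OR5067, -1.70 in OR489 and -1.39 in OR305. Its loading stood at percentile 99.3. The mean of the 10, 0.469, against -0.0319 in the 147, shows nothing of this. ENSMUSG00000031601 ran the other way, with -2.49 in OR3061, -2.24 in OR799, -2.08 in OR559 and -1.58 in OR3571, and 2.24 in OR489, 1.86 in OR5067 and 1.53 in OR5513. OR5232 at 1.43 and OR305 at -1.86 went against their sides, and OR3140 was at 0.460.

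Labels that the rule did not use were tested for where wide profiles lie, over all 157 arrays and with p-values adjusted over 7 labels. Of the 10 livers, 2 were in batch 1, 3 in batch 2, 3 in batch 3, 1 in batch 6 and 1 in batch 8. Batch accounted for 9.37% of the variance of the SD (one-sided permutation test, p = 0.0345, adjusted p = 0.121). On ranks of the SD the share was 13.2% (permutation, adjusted p = 0.0114), and without OR3571 and OR559 it was 13.7% (adjusted p = 0.00983), so the call depended on those 2 arrays and on the scale.

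The SD was higher in arrays hybridized earlier. It correlated with hybridization order at r = -0.236 (two-sided permutation test, p = 0.00281, adjusted p = 0.0197, n = 157) and rho = -0.285 (p = 0.00035, adjusted p = 0.00245), and r was -0.264 without the 2 arrays farthest in order. Without the 10 livers r was -0.257 (permutation, adjusted p = 0.0125), so the relation did not rest on them. Within batches r ran from -0.558 to 0.322 and was positive in 3 of 8. Pooled within batches it was -0.152 (permutation, adjusted p = 0.256), and the relation was not detected there. Of the 10, 5 were hybridized on the first of 4 hybridization days, 3 on the second, 1 on the third and 1 on the fourth.

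No other label passed the test. Kill cohort accounted for 5.46% of the variance of the SD (permutation within batch, adjusted p = 0.797), with 3 of the 10 in cohort 8, 2 in cohort 1 and 1 each in cohorts 2, 3, 7, 9 and 10. Fluidic station accounted for 2.92% (permutation, adjusted p = 0.432), although 6 of the 10 were on station 1, 3 on station 4, 1 on station 2 and 0 on station 3. Slot accounted for 0.916% (permutation, adjusted p = 0.865). The SD correlated with kill day at r = 0.0138 and rho = 0.00236 (permutation, adjusted p = 0.865 and 0.977), and with strain number at r = -0.0219 and rho = -0.0272 (adjusted p = 0.865 and 0.859). Without the 2 farthest arrays r was 0.0134 for kill day and -0.0318 for strain number, and within batches r was positive in 5 of 8 for each, from -0.454 to 0.225 and from -0.509 to 0.305.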

How the data were processed

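A custom probe-set definition (NCBI 37, Ensembl 49) gave 1 value per Ensembl gene, per the series design text. RMA and affy are named per the submitters' processing notes, with no version. What the authors deposited is a score for each gene on each array. Within a tolerance of 6e-05, every score equals the normal quantile of the array's rank divided by the highest rank plus 1; no label describes this step. The number of arrays limits the precision.

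The 10 arrays were chosen by the SD of the deposited scores. The members, the sides and the gene sets were chosen with earlier results of these data known. The rule for named genes (10 shared high, 10 shared low, 5 divided) was narrowed to 4 identifiers, the first of each kind, once no table was found to pair identifiers with symbols; planned gene lists were therefore not used. Batch numbers are those of the labels (8; the design text speaks of 6). Differences are limma 3.58.1 coefficients (R 4.3.3), given without p-values. Components, correlations and permutation tests (100000 permutations; kill cohort, station and slot within batch; Benjamini-Hochberg over 7 labels) used numpy 2.4.6, pandas 2.3.3 and scipy 1.17.1 under Python 3.11.15. The choice of arrays, the count of divided genes, the permutation test of the batch share and the limma coefficient were tested on simulated data. The components and the correlations were not. Replicate numbers only name arrays. A p-value is the share of permutations over these arrays, 1 per mouse, with an association at least as large.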

Additional observations from a re-analysis of the deposited data

Results flagged for a closer look

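Among the 10 livers, OR3571 stood far from the nearest other liver in the number of genes for which it was the highest of all 157 mice (2610) and in the number for which it was the lowest (1150). Its gap to the next liver was 0.527 and 0.600 of the whole range of the 10, above the critical value of 0.466. The 10 were chosen for wide profiles, so the critical value is no test here and these values only describe the widest of them. In kill cohort 4, OR1516 was the highest of all mice for 388 genes, and in kill cohort 5, OR914 was for 214 genes, each far from the rest of its cohort. In all, 20 combinations of group and measure were examined and 4 stood out. Chance gives about 1 in 20 for unrelated measures in groups not chosen by their values. That rate does not hold for the 10, and the measures are related to each other.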

How the results depend on the processing

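The membership of the 10 depended on what was left in the scores. With batch means and kill cohort removed, 5 of the 10 remained among the widest (OR3571, OR559, OR5232, OR5067 and OR5513), and without component 1 of the others, an alternative chosen after seeing the data, 3 remained (OR5232, OR3140 and OR5513). With other measures of width, or with batch means alone removed, 8 or 9 remained. Counts of shared and divided genes moved with each threshold, as fewer or more genes meet a stricter or looser rule by construction. With tails of 5% there were 54 shared high, 6 shared low and 118 divided genes. A minimum of 4 arrays gave 2673 high and 1350 low, a minimum of 6 gave 71 and 19, and at least 4 in each tail gave 78 divided. With batch and cohort removed there were 253 shared high and 643 divided genes. Without the 2 widest arrays there were 43, 13 and 167. Leaving out each of the 10 in turn gave 125 to 603 shared high, 44 to 187 shared low and 351 to 807 divided genes, 110 to 269 genes higher by 1 unit and 82 to 207 lower. With kill cohort as the only covariate 222 genes were higher. At 0.75 units 796 were higher and 552 lower, and with the threshold raised by the same step 10 were higher and 8 lower. The batch share of the SD was 13.2% on ranks and 13.7% without the 2 widest arrays, both past the threshold, and the correlation with hybridization order fell to -0.152 within batches, short of it; the cause was not tested. Without the 2 widest arrays (chosen after seeing the data), r with hybridization order was -0.297 (permutation, adjusted p = 0.00133). The difference of ENSMUSG00000058743 ran from 1.65 to 1.83 and that of ENSMUSG00000026356 from -1.23 to -0.824 when each of the 10 was left out. Of the 128 alternatives, 48 were classed as moved from the reported value, 77 as the same, 2 as stronger and 1 as weaker. The differences of ENSMUSG00000058743 and ENSMUSG00000026356 kept their sign in every alternative run for them. So did the correlations of the SD with hybridization order, kill day and strain number. The other alternatives are counts or shares, which have no sign to change. Outside these, 2 array pairs changed sign with batch and cohort removed. Lower genes outnumbered higher ones without OR3140 or OR3061. Alternatives that leave out odorant and vomeronasal receptor genes, and medians of gene lists, were not run, since they need gene symbols. No paired analysis was possible because the replicate numbers follow accession order and pair no arrays.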
